A study of Mus musculus with 36 samples.

Results

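The cerebral cortex of mice that had lost Dicer from excitatory forebrain neurons was compared with that of control mice 4 weeks after the deletion was induced. The comparison holds 6 of the 36 arrays of the series, 3 arrays per group and 1 mouse per array, taken by their labels: cortex of tamoxifen-treated mice (cKO) and cortex of vehicle-treated mice (control), both at 4 weeks. Mice of both groups were Cre+;Dicer lox/lox, that is, they carried the Camk2a-CreERT2 transgene and 2 floxed Dicer alleles on a C57BL/6J background, so the controls had the transgene and the floxed alleles too. At 8 weeks of age the cKO mice received 10 mg of tamoxifen in all over 5 days and the controls received the sunflower oil and ethanol vehicle. Because tamoxifen went to the cKO mice alone, the deletion and the drug cannot be told apart in these data. The Camk2a promoter drives the recombinase in excitatory neurons, and glia, vessels, meninges and most interneurons of the tissue keep an intact Dicer gene. The arrays thus measure a mixture of recombined and unrecombined cells, in which fewer cells of a type and less RNA per cell cannot be told apart.

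Dicer is the cytoplasmic ribonuclease that cuts hairpin precursors into mature microRNAs (miRNAs), which guide Argonaute proteins to messenger RNAs through a short 5′ stretch called the seed. Binding lowers the stability or the translation of the target. miR-124, miR-9, miR-29 and let-7 are among the abundant miRNAs of the brain. The arrays do not measure mature miRNAs. Their sequences are shown, from RefSeq on GRCm38.p6 with the seed (bases 2 to 8) in capitals, for miR-9, miR-29 and let-7, because lists of their reported targets are described further on. The miR-9-5p sequence is encoded at chr3:88215613-88215635, chr7:79505279-79505301 and chr13:83738821-83738843, all on the plus strand. Members of the miR-29 family share 1 seed. miR-29a-3p lies at chr6:31062673-31062694 on the minus strand, miR-29b-3p at chr1:195037091-195037113 on the plus strand and chr6:31063025-31063047 on the minus strand, and miR-29c-3p at chr1:195037600-195037621 on the plus strand. The let-7 members share another seed. let-7a-5p lies at chr13:48538239-48538260 on the minus strand, let-7b-5p at chr15:85707325-85707346 on the plus strand and let-7i-5p at chr10:122985698-122985719 on the minus strand.
miR-9-5p: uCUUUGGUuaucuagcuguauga
miR-29a-3p: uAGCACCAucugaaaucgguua
miR-29b-3p: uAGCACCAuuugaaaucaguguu
miR-29c-3p: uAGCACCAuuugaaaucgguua
let-7a-5p: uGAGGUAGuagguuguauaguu
let-7b-5p: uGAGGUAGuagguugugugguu
let-7i-5p: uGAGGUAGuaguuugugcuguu

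Each array read the level of a transcript as a fluorescence intensity, normalised by RMA and given on the log2 scale. The 6 arrays did not fall into 2 groups of 3. Replicates 1 and 2 of each group lay together and far from those of the other group, whereas replicate 3 of the cKO group and replicate 3 of the control group lay beside each other. On an axis that runs from control replicates 1 and 2 (at 0) to cKO replicates 1 and 2 (at 1), cKO replicate 3 was at 0.389 and control replicate 3 at 0.494. Across the 14721 tested genes, control replicate 3 correlated most closely with cKO replicate 3 (Pearson r = 0.9884) and not with an array of its own group, and cKO replicate 3 correlated most closely with replicate 2 of the 8-week cKO group (r = 0.9903). The median log2 level of an array was 6.426, 6.430 and 6.439 for cKO replicates 1 to 3 and 6.327, 6.340 and 6.430 for control replicates 1 to 3. Actin read higher at its 3′ than at its 5′ probe set, by 1.118, 1.116 and 1.139 in cKO and by 1.298, 1.334 and 1.075 in control mice. On these measures control replicate 3 was at or beyond the level of the cKO arrays. For Gapdh the same 3′ minus 5′ measure was 0.038, 0.052 and 0.114 in cKO and -0.021, 0.070 and 0.205 in control mice, so that control replicate 3 was the highest of all 6, and the part of these features in the results was not tested. The main results are therefore also given for replicate 3 on its own, as cKO replicate 3 minus control replicate 3, which are different mice and no matched pair.

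**Figure D1:**
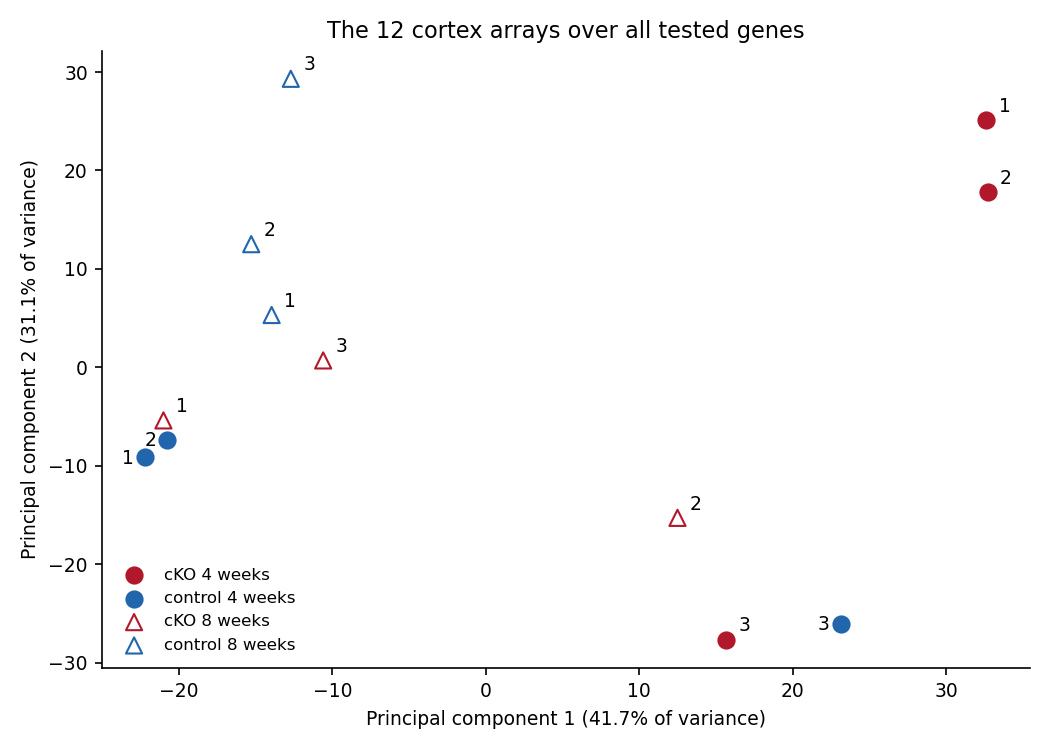
First 2 principal components of the 12 cortex arrays over all tested genes, with each point 1 array labelled by its replicate number, filled circles for 4 weeks, open triangles for 8 weeks, red for cKO and blue for control. Component 1 holds 41.7% and component 2 holds 31.1% of the variance, and replicates 3 of both 4-week groups lie together at the lower right, away from replicates 1 and 2 of either group.

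Set against the arrays labelled hypothalamus, the label cortex held in all 12 cortex arrays. This comparison cannot tell whether a piece also held some hippocampus or striatum. Slc17a7, the vesicular glutamate transporter of cortical excitatory neurons, ranked between 91.9 and 93.8 on a percentile scale of all probe sets of an array, against 21.0 to 26.1 in the arrays labelled hypothalamus. Fezf2, a transcription factor of deep-layer projection neurons, ranked between 79.4 and 86.6 against 27.7 to 42.8. Hcrt, the orexin precursor made in the hypothalamus, ranked between 40.1 and 48.4 in cortex against 97.3 to 99.5 in hypothalamus. Ttr, the defining transcript of choroid plexus, was spread from 82.9 to 100.0 among the cortex arrays.

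Below, a level is a log2 intensity, a difference is the mean of the 3 cKO arrays minus that of the 3 controls on the same scale with its standard error (SE), and an adjusted p comes from limma over all tested genes. At a false discovery rate of 15%, the threshold of the study's methods, 769 genes (5.22% of those tested) differed between cKO and control cortex in limma. More of them rose than fell, with 625 genes higher in cKO (4.25%) and 144 lower (0.978%). The rises were small, with a median of 0.49 on the log2 scale, and only 11 of them exceeded 1. The falls were larger, with a median of -0.69 and 37 of them beyond -1. Over all tested genes the median difference was 0.11, and 67.3% of them were higher in cKO. The arrays of the groups did not overlap for 729 of the 769 called genes and for 2812 (19.1%) of all tested genes. At a false discovery rate of 5%, 2 genes were called, and 88 at 10%. With each array centred on its median, 101 genes were called (80.2% of them higher in cKO, against 81.3% of the 769). Fitted to the 6 arrays alone, without the 8-week cortex arrays that share in the estimate of the spread, limma called 0 genes, with 2035 at an unadjusted p under 0.05. Without cKO replicate 1, cKO replicate 2, control replicate 1 or control replicate 2 the count was 3, 2, 1 and 0 (3317 genes had an unadjusted p under 0.05 with all arrays), and without cKO replicate 3 or control replicate 3 it was 4197 and 6814, so that every count of called members given below depended on all 4 of the first arrays.

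Without both replicates 3, 8242 genes (56%) were called, and they included all 769. Those 8242 did not move the same way in replicate 3. Of the 5807 that rose in replicates 1 and 2, 41.2% were higher in cKO replicate 3 than in control replicate 3, with a median difference of -0.046 against 0.42 in replicates 1 and 2. Of the 2435 that fell, 31.2% were lower in replicate 3, with a median of 0.13 against -0.67. For most of the 769 genes called with all arrays, replicate 3 pointed the same way as the others. Among the 625 risers, 98.2% were higher in replicate 3, with a median of 0.25 against 0.60, and among the 144 fallers 84.7% were lower, with a median of -0.26 against -0.87. This share is partly set by the call, which used all 6 arrays. The plot of each gene in replicate 3 shows that the spread over all genes was 0.510 (SD) for the difference in replicates 1 and 2 and 0.272 in replicate 3.

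**Figure D2:**
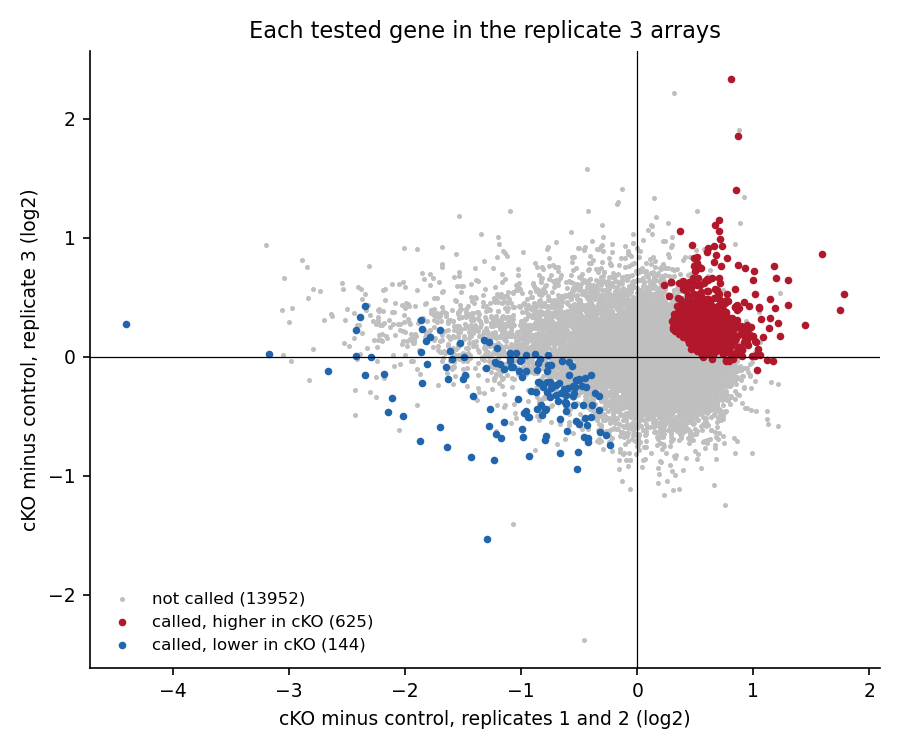
Difference between cKO and control (log2) of each tested gene in replicates 1 and 2 (horizontal axis, mean of 2 minus mean of 2) and in replicate 3 (vertical axis, 1 array minus 1 array), with grey for genes not called, red for the 625 called higher in cKO and blue for the 144 called lower. The red points sit to the right and almost all above 0, whereas the blue points reach far to the left and many of them lie near 0 on the vertical axis.

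Dicer1 itself was not lower in cKO on the arrays. Its more variable probe set read 6.67, 6.77 and 6.57 in cKO mice and 5.86, 6.16 and 6.65 in control mice, a difference of 0.45 (SE 0.20, adjusted p = 0.214) that did not pass the test, and -0.080 in replicate 3. The other probe set for Dicer1 differed by 0.10. The deletion removes 1 exon and leaves the rest of the transcript, and the sources used here do not place the probes relative to that exon, so these values do not measure recombination. Camk2a, the kinase gene whose promoter drives the recombinase, read 7.81, 7.78 and 7.74 in cKO mice and 8.04, 7.88 and 7.61 in control mice, with overlapping groups. Of 15 tested genes of the miRNA machinery 1 rose (6.67%, against 4.25% of all genes) and none fell. The riser was Xpo5, which exports miRNA precursors from the nucleus, at 0.35 (SE 0.10, adjusted p = 0.14). Ago2 and Ago3 are Argonautes that hold the mature miRNA. The level of Ago2 was 6.58, 6.66 and 7.75 in cKO and 7.67, 7.45 and 7.62 in controls, and that of Ago3 was 4.11, 3.89 and 5.88 in cKO and 5.57, 5.55 and 5.62 in controls. Neither passed the test (adjusted p = 0.215 and 0.199).

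Of 9 tested host or precursor transcripts of miRNAs, chosen after the array's annotation was seen, 1 was called (5.22% of all tested genes were called). Mir670hg, the host of miR-670, read 6.06, 5.94 and 6.11 in cKO and 5.55, 5.56 and 5.53 in controls, a rise of 0.49 (SE 0.13, adjusted p = 0.130), with 0.047 on its other probe set. Mir124a-1hg, a host of miR-124, read 9.32, 9.34 and 9.24 in cKO and 8.83, 8.83 and 9.26 in control arrays, so that control replicate 3 stood with the cKO arrays. Mir124-2hg, a second host of miR-124, read 7.76, 7.66 and 7.55 in cKO and 7.91, 7.96 and 6.87 in controls. Mir9-3hg, a host of miR-9, read 7.55, 7.45 and 7.64 and 7.64, 7.22 and 7.48. For these hosts of miR-124 and miR-9 the groups overlapped. The other 5 differed by -0.49 to 0.28.

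The lowest p-value belonged to Perp, a membrane protein of cell junctions that p53 induces. Perp read 6.17, 6.11 and 5.93 in cKO mice and 5.17, 5.12 and 5.28 in control mice, and no array of one group reached the other. Its difference was 0.88 (SE 0.096, adjusted p = 0.0146) and in replicate 3 it was 0.65. Slc26a7, an anion exchanger, came next at 5.26, 5.84 and 5.22 in cKO mice and 4.01, 3.91 and 4.35 in control mice, a difference of 1.35 (SE 0.17, adjusted p = 0.0334). Anxa1, a phospholipid-binding protein that dampens inflammation, rose by 1.02 (SE 0.14, adjusted p = 0.0529) and the noncoding Gm16835 by 0.62 (SE 0.092, adjusted p = 0.0649). In each of these 4 genes replicate 3 differed in the same direction, by 0.87 for Slc26a7, 0.66 for Anxa1 and 0.64 for Gm16835. Perp was the strongest of 3 risers among 17 tested p53 targets (17.6%, against 4.25% of all genes). The median difference of the 17 was 0.10, against 0.11 over all genes. Aen, a nuclease of apoptosis, rose by 0.58 (SE 0.11, adjusted p = 0.0943), with 0.18 and -0.042 on other probe sets. Ppm1d, the phosphatase that ends p53 signalling, rose by 0.55 (SE 0.14, adjusted p = 0.122), with 0.19 on its other probe set.

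**Figure D3:**
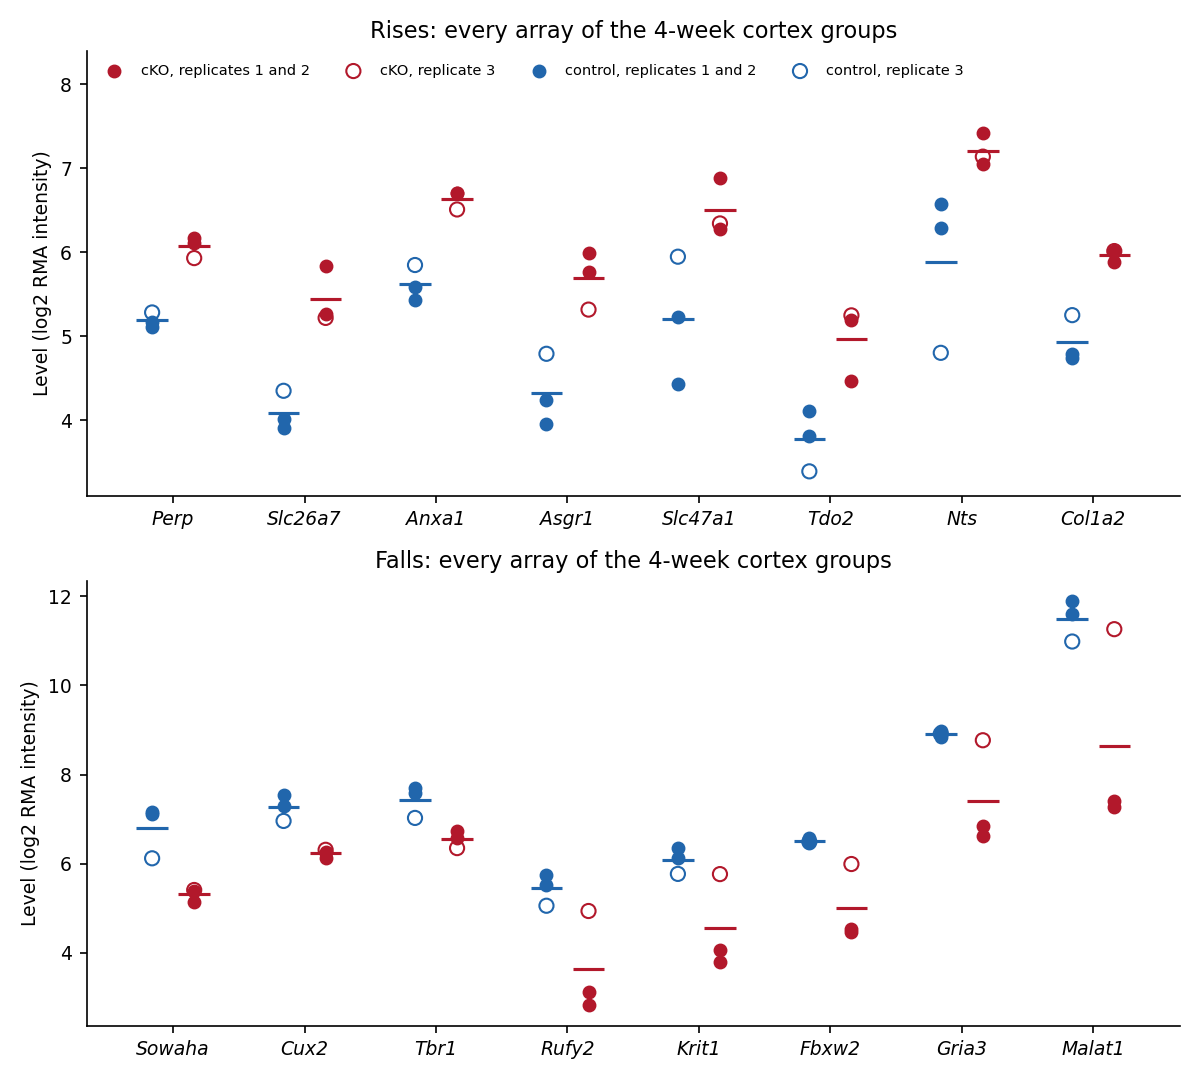
Level (log2 RMA intensity) of 8 genes that rose and 8 genes that fell in every array of the 4-week cortex groups, with red for cKO, blue for control, filled points for replicates 1 and 2, open points for replicate 3 and bars for the mean of 3. For the rises the open points keep the order of their groups, whereas for Rufy2, Krit1, Gria3 and Malat1 the open red point lies with the controls.

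Among the gene lists, those of the leptomeninges and of the extracellular matrix held the largest shares of risers. Members and lists were chosen with earlier results of these data known. A high share of called members in any list described here can therefore partly follow from that choice. The leptomeninges are the thin membranes on the surface of the cortex, made of fibroblast-like barrier cells that carry solute transporters and lay down collagen. Of 28 tested leptomeningeal transporters and signals, 17 rose (60.7%, against 4.25% of all tested genes), none fell and 27 were higher in cKO, with a median difference of 0.58 against 0.11 over all genes. Asgr1, a subunit of the asialoglycoprotein receptor, read 5.99, 5.76 and 5.32 in cKO mice and 3.95, 4.24 and 4.79 in control mice. It rose by 1.36 (SE 0.21, adjusted p = 0.0649), although control replicate 3 lay above the other controls. Slc13a4, a sulfate transporter, rose by 0.77 (SE 0.12, adjusted p = 0.0649), Slc47a1, an exporter of organic cations, by 1.30 (SE 0.33, adjusted p = 0.121) and Prg4, the lubricant proteoglycan lubricin, by 1.08 (SE 0.19, adjusted p = 0.0943). Slc6a20a, a proline transporter, read 8.13, 7.84 and 7.62 in cKO mice and 7.05, 7.19 and 6.85 in control mice and differed by 0.77 in replicate 3, close to its 0.83 over all arrays. The forkhead factors that specify meningeal fibroblasts rose less evenly. Foxc2 rose by 0.82 (SE 0.17, adjusted p = 0.0943), with 0.32 in replicate 3, and Foxc1 by 0.66 (SE 0.17, adjusted p = 0.12), with 0.0087 in replicate 3. Bche, a cholinesterase outside the list, was among the 10 largest rises with 1.05 (SE 0.24, adjusted p = 0.113).

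Matrix genes of such fibroblasts rose in a like share. Of 38 tested collagens and matrix proteins, 23 (60.5%) rose and none fell, with 37 higher in cKO and a median of 0.55. Col1a2, a chain of type I collagen, read 6.02, 5.88 and 6.01 in cKO mice and 4.74, 4.79 and 5.25 in control mice, and Col3a1, the chain of type III collagen, read 6.35, 6.43 and 6.06 in cKO mice and 5.24, 5.13 and 5.77 in control mice. Ogn, Fmod and Lum, small leucine-rich proteoglycans that space collagen fibrils, rose by 0.93, 0.85 and 0.55, each with an adjusted p of 0.0943. Fn1, or fibronectin, rose by 0.66 and Serping1, the inhibitor of complement C1, by 0.93, at the same adjusted p. Aebp1, a collagen-binding protein, read 6.84, 6.73 and 6.53 in cKO mice and 5.76, 5.70 and 6.51 in control mice, so that its rise of 0.71 came from replicates 1 and 2 and was 0.017 in replicate 3. Over the list, the median deviation of an array from the mean of the 6 was 0.32, 0.36 and 0.18 in cKO and -0.43, -0.36 and -0.049 in controls. For the leptomeningeal transporters these values were 0.34, 0.36 and 0.18 in cKO and -0.52, -0.37 and -0.013 in controls. In both lists the arrays of the groups did not overlap, control replicate 3 was the highest control and cKO replicate 3 the lowest cKO array. With each array centred on its own median, 8 of the leptomeningeal and 12 of the matrix genes rose. The amount of meninges left on each dissected piece was not recorded in the sources used here, and its part in these differences was not tested.

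**Figure D4:**
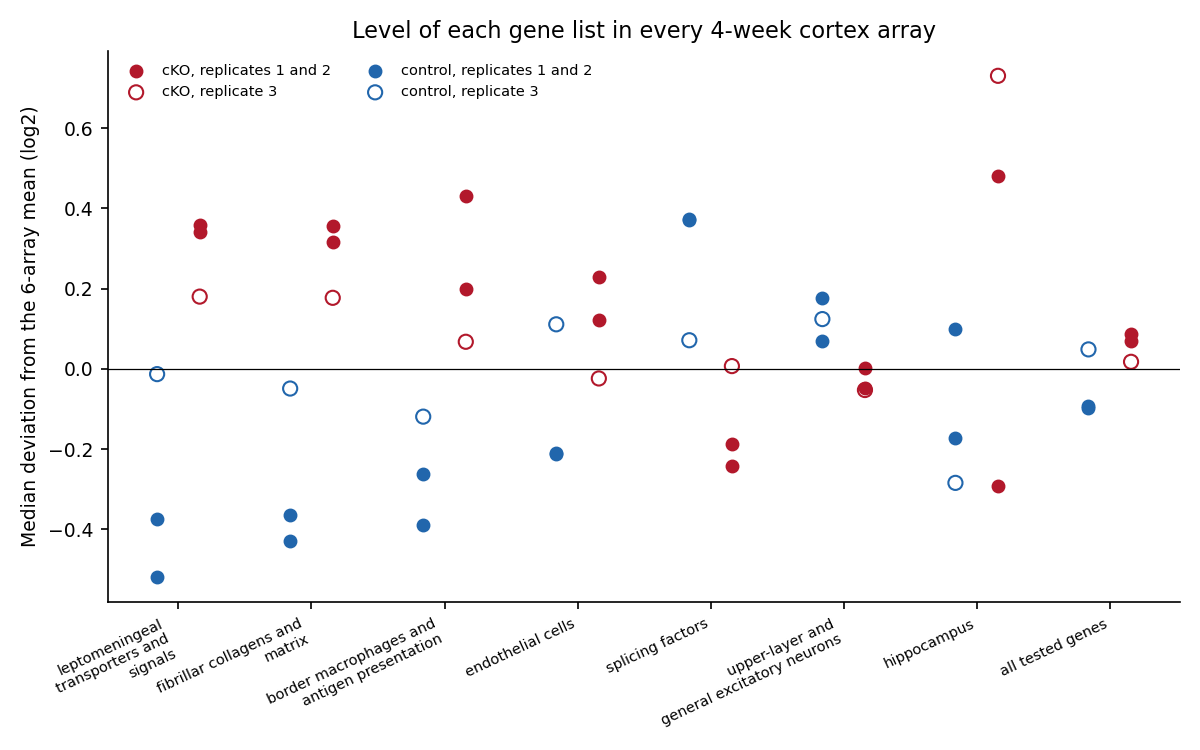
Median deviation of the members of 8 gene lists from their mean over the 6 arrays (log2), for every array of the 4-week cortex groups, with red for cKO, blue for control and open points for replicate 3. The leptomeningeal, matrix and border macrophage lists separate all cKO from all control arrays, the splicing list separates only replicates 1 and 2 clearly, and the hippocampus list is high in cKO replicates 2 and 3.

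A few genes of the BMP, retinoic acid and WNT pathways were called. Bone morphogenetic proteins (BMPs) are ligands that act through SMAD factors, and retinoic acid is a lipid signal made by the meninges. Of 30 tested BMP and TGF-beta genes 7 rose (23.3%, against 4.25% of all genes) and none fell, and 1 rose with centred arrays. Among ligands, Bmp6 read 6.91, 6.89 and 6.52 in cKO mice and 6.13, 5.58 and 6.10 in control mice and rose by 0.84 (SE 0.17, adjusted p = 0.0943), and Bmp4 read 5.78, 5.55 and 5.36 in cKO mice and 4.37, 4.49 and 5.18 in control mice and rose by 0.88 (SE 0.22, adjusted p = 0.114). Bmp5 rose by 0.39 and Gdf10, a ligand of the same family, by 0.62. Bmp7 differed by 0.69 (SE 0.22, adjusted p = 0.151), just short of the threshold, and by 0.79 and 0.22 on its other probe sets. Downstream, Id3, a target of SMAD signalling, and the inhibitory Smad6 rose by 0.47 and 0.75. Of 15 tested retinoic acid genes 2 rose (13.3%, against 4.25% of all genes). They were Aldh1a2, the enzyme that makes retinoic acid, with 0.84 (SE 0.17, adjusted p = 0.0943) and Crabp2, its intracellular carrier, with 0.70 (SE 0.13, adjusted p = 0.0943). Of 27 WNT genes 2 rose (7.41%, against 4.25% of all genes) and 1 fell (3.7%, against 0.978%), and none was called with centred arrays. Fzd7, a receptor, rose by 0.58 and Sfrp4, a secreted antagonist, by 0.40. Nlk, a kinase that restrains WNT transcription, fell by 1.53 and is described further on.

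Macrophages that live at the borders of the brain, next to the meninges and vessels, share antigen-presenting genes that parenchymal microglia hardly express. Of 14 tested genes of border macrophages and antigen presentation 8 rose (57.1%, against 4.25% of all genes) and none fell, with a median of 0.47. With centred arrays 1 of them rose. Dab2, an endocytic adaptor, rose by 0.72 (SE 0.14, adjusted p = 0.0943), and the class II histocompatibility genes H2-Ab1 and H2-Aa by 0.57 and 0.72. The chemokine Pf4 read 6.34, 6.12 and 6.27 in cKO mice and 5.78, 5.83 and 5.91 in control mice. Among 20 tested microglia genes only Cd53, a leukocyte tetraspanin, rose (5%, against 4.25% of all genes), by 0.39 (SE 0.11, adjusted p = 0.14). The microglia list was 0.36 in replicates 1 and 2 but -0.066 in replicate 3. Endothelial genes behaved in the same way, with a median of 0.42 in replicates 1 and 2 against -0.087 in replicate 3, where 4 of 18 were higher. Robo4, Vwf and Slc2a1 were the 3 risers among the 18 (16.7%, against 4.25% of all genes). Slc2a1, the glucose transporter of the blood-brain barrier, read 9.12, 9.10 and 8.98 in cKO mice and 8.43, 8.30 and 8.91 in control mice, so that control replicate 3 stood just below the cKO arrays. Of pericyte and smooth muscle genes 2 of 14 rose (14.3%), namely Pln, the phospholamban of muscle, and Vtn, or vitronectin.

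Genes of reactive glia rose in part. Of 18 tested glial activation genes 6 rose (33.3%, against 4.25% of all genes) and none fell, and 1 rose with centred arrays. Gfap, the intermediate filament of reactive astrocytes, read 8.09, 8.43 and 8.00 in cKO mice and 7.48, 7.63 and 7.34 in control mice, a rise of 0.69 (SE 0.18, adjusted p = 0.128) with 0.66 in replicate 3. Cebpd, an inflammatory transcription factor, read 6.57, 7.17 and 7.16 in cKO mice and 6.02, 6.25 and 6.23 in control mice and differed by 0.93 in replicate 3, more than its 0.73 in replicates 1 and 2. Of 15 astrocyte genes 1 rose (6.67%), Atp1b2, a subunit of the sodium pump, and the list median was 0.054. Of 24 toll-like receptor and cytokine genes 7 rose (29.2%, against 4.25% of all genes) and none fell, and none was called with centred arrays. Ly96, the MD-2 partner of the lipopolysaccharide receptor, read 4.34, 4.54 and 4.53 in cKO mice and 3.79, 3.76 and 3.73 in control mice, with a difference of 0.80 in replicate 3 and 0.71 (SE 0.18, adjusted p = 0.12) overall. Cd14, its co-receptor, rose by 0.64 (SE 0.16, adjusted p = 0.114). Of 21 interferon and class I genes 1 rose (4.76%), Ifit2, and the list median changed sign from 0.40 in replicates 1 and 2 to -0.16 in replicate 3. Myelin genes had nearly the same median in replicates 1 and 2 (0.25) as in replicate 3 (0.27). Among these 16 genes 2 rose (12.5%), Gjb1 and Hapln2, a gap junction protein and a matrix link protein of myelinated axons. No member was called in the lists for oligodendrocyte precursors (9 tested), striatum (7) and blood (3). The striatum list varied widely within both groups, with median deviations of 0.79, 0.069 and -0.38 in cKO and 0.27, -0.21 and -0.47 in control arrays. The part of striatal tissue in these arrays was not tested. Ciliary genes of ependymal cells had 2 risers among 15 (13.3%), Rsph9 and Enkur.

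The fallers were spread over the arrays in another way. For the 144 called fallers the median position of cKO replicate 3 on the way from control replicates 1 and 2 (0) to cKO replicates 1 and 2 (1) was 0.534, against 0.752 for the 625 risers. Both replicates 3 lay nearer the control end for 45.1% of the fallers and 15.8% of the risers, and nearer the cKO end for 19.4% and 23.2%. Each replicate 3 lay nearer its own group for 33.3% of the fallers and 60.6% of the risers. Among the named fallers 3 patterns were seen. In the first pattern, chosen like the others after the values were seen, cKO replicates 1 and 2 were far below the controls. There cKO replicate 3 lay nearer the controls, though below each of them in the genes given here. Rufy2, an adaptor of endosomes, read 2.82, 3.12 and 4.94 in cKO mice and 5.75, 5.53 and 5.06 in control mice, a difference of -1.82 with -0.12 in replicate 3. Krit1, a scaffold of endothelial junctions, read 3.81, 4.07 and 5.77 in cKO mice and 6.34, 6.12 and 5.77 in control mice, with -0.0046 in replicate 3. Gria3, an AMPA receptor subunit, read 6.61, 6.84 and 8.77 in cKO mice and 8.85, 8.97 and 8.91 in control mice. Fbxw2, a subunit of ubiquitin ligases, read 4.47, 4.53 and 5.99 in cKO mice and 6.46, 6.58 and 6.49 in control mice, with -0.50 in replicate 3. In the second pattern control replicate 3 was low as well. Sh2d5, an SH2-domain protein of neurons, read 3.49, 3.06 and 4.06 in cKO mice and 5.69, 5.55 and 4.22 in control mice, and Nlk read 5.62, 5.20 and 5.28 in cKO mice and 7.45, 7.60 and 5.62 in control mice. In the third pattern all 3 cKO arrays were low and replicate 3 kept a clear gap, although control replicate 3 was the lowest control in each gene. On the way from controls to cKO, control replicate 3 stood at 0.545 for Sowaha, 0.62 for Dnajc14 and 0.377 for Fbxl20. Sowaha, an ankyrin repeat protein, read 5.39, 5.15 and 5.41 in cKO mice and 7.12, 7.16 and 6.12 in control mice, a difference of -1.49 (SE 0.30, adjusted p = 0.0943). Dnajc14, a chaperone cofactor of the endoplasmic reticulum, differed by -1.30 in replicates 1 and 2 and by -1.53 in replicate 3, although cKO replicate 3 and control replicate 3 were both lower than the rest of their groups. Its other probe sets differed by 0.44 and -0.27. Fbxl20, another ligase subunit, read 7.39, 6.69 and 6.94 in cKO mice and 8.20, 8.36 and 7.81 in control mice, with -0.87 in replicate 3.

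For many fallers the probe sets of 1 gene differed. Of 118 called fallers with another probe set above the filter, 52 (44.1%) had no other probe set lower in cKO, and in 100 (84.7%) the other probe set that fell the most fell by less than 0.5 times as much. Among 296 risers with another probe set these shares were 14.9% and 66.2%. The tested probe set is the most variable one of its gene, so some shrinkage follows from that choice in both directions. The 5 other probe sets of Fbxw2 ranged from -0.053 to 0.39 beside -1.51 for the tested one. Those of Rufy2 ranged from -0.066 to -0.014, and those of Fbxl20 from 0.15 to 0.37. By contrast the single other probe set of Gria3 differed by -0.54 and that of Col1a2 by 0.83, in the direction of the tested one. The part of a transcript that a probe set reads was not analysed here.

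Malat1, a nuclear noncoding RNA that neurons hold in quantity, had the widest gap of any named gene. It read 7.28, 7.41 and 11.26 in cKO mice and 11.90, 11.61 and 10.98 in control mice. The difference of -2.84 (SE 0.83, adjusted p = 0.14) thus came from cKO replicates 1 and 2 alone, with 0.28 in replicate 3. Its other probe sets did not all do so. Differences of -2.53 and -2.27 were read by 2 of them and the remaining ones ranged from -0.21 to 0.45. Snhg11, another neuronal noncoding RNA, had the same pattern at 8.31, 8.71 and 11.88 in cKO mice and 11.53, 11.61 and 11.87 in control mice and was not called (adjusted p = 0.171). Neat1 and Tug1, also nuclear, rose by 0.47 and 0.44, with 0.37 and 0.34 in replicate 3, although the other probe set of Neat1 differed by -0.21. Of 36 splicing factors 4 (11.1%, against 0.978% of all genes) fell and none rose, with a median of -0.43. Only 2 of these 4 were also lower in replicate 3, and centred arrays left 1 faller in the list and 0 risers. Rbfox1, the neuronal splicing regulator, read 7.59, 7.43 and 8.56 in cKO mice and 8.70, 8.86 and 9.00 in control mice, a difference of -0.99 (SE 0.24, adjusted p = 0.114). Its other probe sets ranged from -0.31 to -0.051. The list was -0.74 in replicates 1 and 2, where without replicates 3 21 of the 36 fell and 6 rose (2435 and 5807 of all 14721 genes), and 0.14 in replicate 3, where 25 of 36 were higher. Chromatin regulators were mixed. Of 31, 4 rose (Chd7, Arid2, Kdm4a and Setd2) and 3 fell (Chd8, Brd1 and Arid4a). These were 12.9% and 9.68%, against 4.25% and 0.978% of all genes, and the list median was -0.23. Centred arrays left 1 riser in the chromatin list and 0 fallers. Chd7, a remodeller, read 6.03, 6.05 and 6.06 in cKO mice and 5.51, 5.41 and 5.68 in control mice, with -0.15 on its other probe set. Arid4a read 4.32, 4.23 and 5.83 in cKO mice and 6.16, 6.03 and 5.70 in control mice, with overlapping groups.

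Among genes of cortical excitatory neurons, the cells in which the recombinase is active, a few transcription factors changed. Of 19 upper-layer and general excitatory genes only Cux2 fell (5.26%, against 0.978% of all genes) and none rose. Cux2, a factor of upper-layer neurons, read 6.25, 6.14 and 6.31 in cKO mice and 7.53, 7.30 and 6.96 in control mice, a difference of -1.03 (SE 0.22, adjusted p = 0.0943) and -0.65 in replicate 3. The other probe sets of Cux2 above the filter differed by -0.010 and 0.099, so that the fall was read by 1 of 3. Of 15 deep-layer genes Tbr1 fell (6.67%, against 0.978% of all genes) and Tshz2 and Ntsr1 rose (13.3%, against 4.25%). Tbr1 read 6.74, 6.58 and 6.35 in cKO mice and 7.59, 7.70 and 7.03 in control mice, a difference of -0.88 (SE 0.19, adjusted p = 0.0943). Tshz2, a zinc finger factor of deep layers, read 6.57, 6.35 and 6.42 in cKO mice and 5.74, 5.85 and 5.31 in control mice, and rose by 0.81 (SE 0.16, adjusted p = 0.0943). Ntsr1, the neurotensin receptor that marks layer 6, read 6.30, 6.16 and 6.25 in cKO mice and 5.75, 5.74 and 5.73 in control mice, with nearly the same gap in replicate 3 (0.53) as overall (0.50). Of 21 interneuron genes 1 rose (4.76%), Adarb2, an RNA-binding protein of interneurons. It rose by 0.63 (SE 0.16, adjusted p = 0.114), with -0.011 on its other probe set above the filter. Of 20 AMPA receptor genes Gria3, Akap5 and Shisa9 fell (15%, against 0.978% of all genes), and the list median was -0.083. Cnih2, which carries receptors to the synapse, was the only riser (5%, against 4.25%), with 0.38. Akap5, a postsynaptic anchor, read 6.07, 6.40 and 5.94 in cKO mice and 7.10, 7.32 and 6.41 in control mice, whereas its other probe sets differed by 0.058 and 0.34. Those of Shisa9, an auxiliary subunit, likewise differed by 0.094 and 0.22 beside -0.61 for the tested one. Of 24 genes of vesicle release Stxbp5l, Nlgn1 and Syt4 fell (12.5%) and Syt7, a calcium sensor, rose (4.17%), with a list median of -0.17. No AMPA receptor or vesicle release gene was called with centred arrays. The other probe sets of Stxbp5l differed by 0.12 and -0.034, and those of Syt7 ranged from -0.0025 to 0.40 beside 0.49. Nlgn1, a synaptic adhesion protein, read 6.61, 6.67 and 7.61 in cKO mice and 7.84, 8.07 and 7.47 in control mice, so that replicate 3 differed by 0.14. Of 20 immediate early genes only Jun, a transcription factor of activity and stress, rose (5%). It read 8.44, 8.47 and 8.47 in cKO mice and 7.86, 7.99 and 7.94 in control mice, a rise of 0.53 (SE 0.11, adjusted p = 0.0943) with 0.53 in replicate 3.

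A few risers had their largest gap in replicate 3. Nts, the peptide neurotensin, read 7.41, 7.05 and 7.14 in cKO mice and 6.28, 6.57 and 4.80 in control mice. It rose by 1.32 (SE 0.40, adjusted p = 0.148), with 0.81 in replicates 1 and 2 and 2.34 in replicate 3, where the control array was far below the other controls. Tdo2, which breaks down tryptophan and is found in dentate granule cells, read 4.47, 5.19 and 5.25 in cKO mice and 3.82, 4.10 and 3.39 in control mice and rose by 1.20 (SE 0.22, adjusted p = 0.0943). Lct, the lactase gene, which is likewise transcribed in the dentate gyrus, read 4.58, 5.24 and 5.70 in cKO mice and 3.99, 4.13 and 4.29 in control mice and rose by 1.04 (SE 0.28, adjusted p = 0.135). C1ql2, a synaptic organizer of dentate granule cells, read 5.62, 6.41 and 6.73 in cKO mice and 5.71, 5.69 and 4.51 in control mice and did not pass (adjusted p = 0.158), nor did Dsp, desmoplakin, at 2.68, 4.91 and 4.79 in cKO mice and 3.14, 2.70 and 2.88 in control mice. Over 9 tested hippocampal genes the median deviation was -0.29, 0.48 and 0.73 in cKO and -0.17, 0.099 and -0.28 in control arrays. All 9 were higher in replicate 3, and 1 of the 9, Lct, was called as a riser (11.1%, against 4.25% of all genes). The list thus stood high in cKO replicates 2 and 3, in which Tdo2 and Lct were also highest, and the part of hippocampal tissue in these rises was not tested. Choroid plexus genes varied within the groups. Ttr read 7.75, 12.09 and 11.24 in cKO mice and 12.80, 9.48 and 11.86 in control mice, none of 8 such genes was called, and the highest and the lowest array for Ttr were a control and a cKO array.

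Reported targets of miR-9, miR-29 and let-7, grouped by the seeds shown above, and of miR-124, whose sequence is not shown, were called singly. Of 29 tested targets of miR-124, 3 rose (10.3%, against 4.25% of all genes) and 1 fell (3.45%, against 0.978%). Of the 29, 22 were higher in cKO, with a median of 0.16 against 0.11 over all genes. Cdk4, a cell cycle kinase, read 7.54, 7.57 and 7.07 in cKO mice and 6.67, 6.64 and 7.01 in control mice, a rise of 0.62 (SE 0.18, adjusted p = 0.14) that shrank to 0.058 in replicate 3, and Ezh2, a histone methyltransferase, rose by 0.41 (SE 0.096, adjusted p = 0.113). Ptbp1, the splicing repressor through which miR-124 acts on neuronal exons, differed by 0.37 (SE 0.12, adjusted p = 0.153) and was not called. Of 26 tested targets of miR-29, 4 rose (15.4%) and none fell, with a median of 0.14. They were Col3a1, Col1a2, Col5a2 and Ppm1d, and 3 of these 4 are also in the matrix list, fibrillar collagens that fibroblasts make. Of 16 targets of miR-9, 2 rose (12.5%), Foxo1 and Pax6, both transcription factors, and the median was -0.084. Foxo1 read 7.79, 7.72 and 7.72 in cKO mice and 7.15, 7.10 and 7.41 in control mice, a rise of 0.52 (SE 0.11, adjusted p = 0.0943), and its other probe sets ranged from -0.19 to 0.46. Of 16 targets of let-7 none was called, 7 were higher and the median was -0.081. In replicate 3 alone the medians of the 4 lists were 0.020, 0.079, 0.058 and -0.014. With centred arrays 0, 2, 1 and 0 members of these lists were called, all higher. Target sites in the transcripts were not analysed here.

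Genes of appetite, lipids and heat that the study discusses were examined one by one. Pmch, the melanin-concentrating hormone of the lateral hypothalamus, read 5.64, 4.94 and 5.23 in cKO mice and 4.60, 4.83 and 4.61 in control mice, a rise of 0.59 (SE 0.18, adjusted p = 0.148). Together with Nts and Ntsr1 it made up the 3 risers among 26 feeding genes (11.5%, against 4.25% of all genes), and none fell. Pmch and Prkcd, a kinase of thalamic neurons, were the only risers among 14 genes of hypothalamus and thalamus (14.3%). Lepr, the leptin receptor, has 4 probe sets here that did not move together. The tested one read 4.45, 4.72 and 3.88 in cKO mice and 4.96, 4.44 and 4.55 in control mice and was not called (adjusted p = 0.372), and another above the filter differed by 0.069. Another, under the filter on low values, read 4.07, 3.84 and 3.44 in cKO and 3.04, 2.98 and 3.08 in controls, with no overlap. Sstr3, a somatostatin receptor, differed by -0.47 (SE 0.28, adjusted p = 0.308) on the tested probe set. Its other probe set read 6.15, 5.81 and 5.97 in cKO and 6.66, 6.78 and 6.72 in controls, lower in all 3 cKO arrays.

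Of 33 glycerolipid and fatty acid genes 5 rose (15.2%, against 4.25% of all genes) and 2 fell (6.06%, against 0.978%). With centred arrays 2 rose and 1 fell. Agpat2, which makes phosphatidic acid, read 4.92, 4.99 and 4.89 in cKO mice and 4.25, 4.20 and 4.45 in control mice, a rise of 0.63 (SE 0.10, adjusted p = 0.0943). Pld1, a phospholipase that makes the same lipid from phosphatidylcholine, read 6.86, 6.90 and 6.83 in cKO mice and 6.28, 6.08 and 6.30 in control mice, a rise of 0.65 (SE 0.11, adjusted p = 0.0943) with 0.53 in replicate 3. The 2 fallers were diacylglycerol kinases, Dgkh with a difference of -0.54 and Dgkd with -0.83. The other probe sets of Dgkh differed by -0.12 and 0.29, so that its fall was not shared by all of them. Dgkd read 3.79, 3.51 and 4.69 in cKO mice and 4.88, 4.87 and 4.74 in control mice, so that replicate 3 differed by -0.044, and its other probe sets ranged from 0.064 to 0.63. Far1, which reduces fatty acids to alcohols, read 5.65, 5.90 and 6.01 in cKO mice and 7.30, 7.25 and 6.04 in control mice and missed the threshold at an adjusted p of 0.151. Its other probe sets above the filter ranged from -0.20 to 0.28. Of 21 cholesterol genes Npc2 and Abcg1 rose (9.52%, against 4.25% of all genes) and Lss, lanosterol synthase, fell (4.76%, against 0.978%). With centred arrays 0 were called. Abcg1, a sterol exporter, read 7.34, 7.31 and 7.43 in cKO mice and 7.03, 6.95 and 7.09 in control mice. Its other probe set differed by 0.010. The other probe sets of Npc2 above the filter differed by 0.071 and 0.20 beside 0.48 for the tested one. Those of Lss differed by -0.31 and 0.14 beside -0.58. Stard4, a sterol carrier, read 5.66, 5.61 and 6.72 in cKO mice and 6.81, 6.77 and 6.69 in control mice and was not called (adjusted p = 0.151). Its other probe sets differed by 0.049 and 0.11.

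Among 16 prostaglandin and thermogenesis genes 7 rose (43.8%, against 4.25% of all genes) and none fell, with a median of 0.46. With centred arrays 3 of the 16 rose. Ptgds, the prostaglandin D synthase that the leptomeninges secrete, read 12.98, 12.95 and 12.82 in cKO mice and 12.27, 12.35 and 12.47 in control mice, a rise of 0.55 (SE 0.11, adjusted p = 0.0943). Cox7a1, a subunit of cytochrome oxidase in muscle and brown fat, read 5.55, 5.51 and 5.46 in cKO mice and 5.04, 5.02 and 5.09 in control mice and rose by 0.46 (SE 0.094, adjusted p = 0.0943), with 0.38 in replicate 3. Cidea, a lipid droplet protein, rose by 0.59 (SE 0.13, adjusted p = 0.0943) and Ptgs2, the inducible cyclooxygenase, by 0.54 (SE 0.17, adjusted p = 0.148). Ptgds and Ptgis are also in the leptomeningeal list. Ptger1, a prostaglandin E receptor, read 5.61, 5.32 and 5.17 in cKO mice and 5.08, 5.11 and 5.29 in control mice and was not called (adjusted p = 0.375). Of 26 heat shock genes 3 rose (11.5%), Hspb8, Dnaja4 and Dnaja3, all cochaperones or small heat shock proteins, with 0.59 (SE 0.11, adjusted p = 0.0943) for Hspb8. Hsp90aa1, a main cytosolic chaperone, read 9.88, 10.25 and 11.73 in cKO mice and 12.11, 11.87 and 11.58 in control mice, not called at an adjusted p of 0.151, and its cKO replicate 3 stood with the controls. Ribosomal protein genes had 1 riser among 18 (Rpl14, 5.56%) and genes of oxidative phosphorylation 1 among 26 (Uqcrq, 3.85%). Neither list held a faller, and the medians were 0.084 and -0.028.

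**Figure D5:**
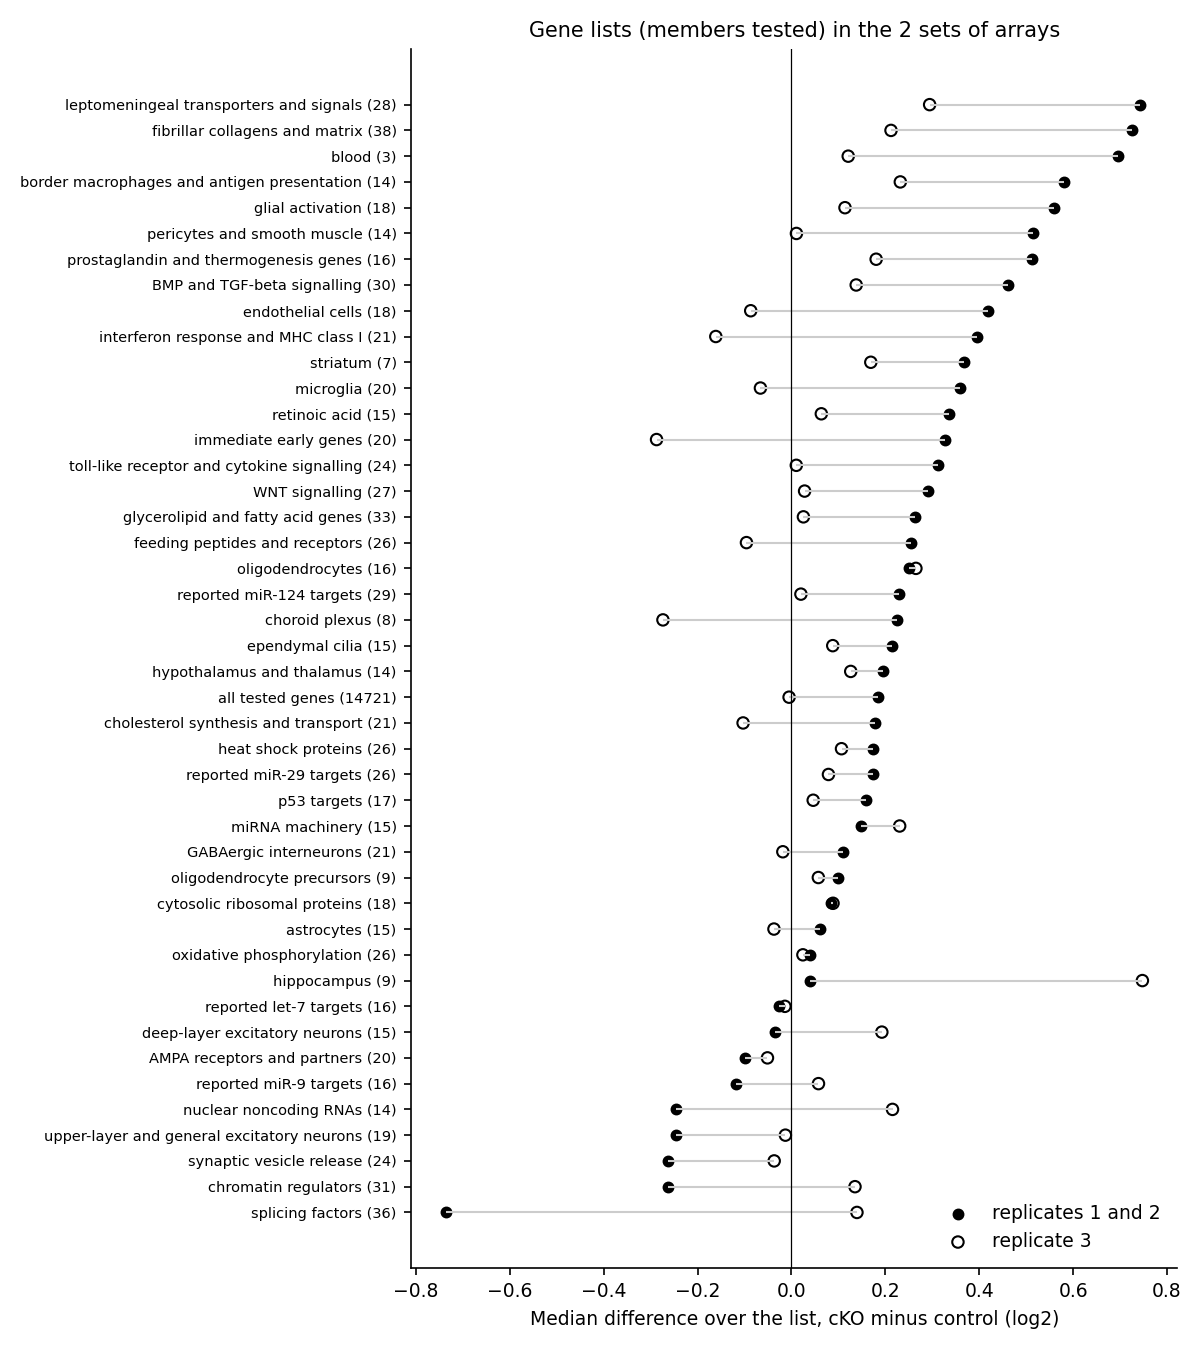
Median difference between cKO and control (log2) over the tested members of each gene list, with filled points for replicates 1 and 2, open points for replicate 3, and the number of members tested in parentheses. The leptomeningeal, matrix and border macrophage lists are above 0 in both, the splicing, chromatin and nuclear noncoding RNA lists are below 0 in replicates 1 and 2 and above 0 in replicate 3, and the hippocampus list is highest in replicate 3.

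The change at 4 weeks was set against the change at 8 weeks in the same fit, and the difference of the 2 changes passed the threshold for 1 gene of 14721 (0.00679%), with 1808 at an unadjusted p under 0.05. That gene was Perp. At 8 weeks it read 5.40, 5.47 and 5.39 in cKO mice and 5.56, 5.57 and 5.63 in control mice, a change of -0.17 against 0.88 at 4 weeks, so that the order of the groups turned, and the changes differed by 1.05 (SE 0.14, adjusted p = 0.0843 from limma). Slc26a7, Arhgef10, Zfp560 and Dgkh had the next lowest p-values, each with an adjusted p of 0.350. Slc26a7 read 4.58, 4.73 and 4.63 in cKO and 4.39, 4.41 and 4.66 in controls at 8 weeks, with overlapping groups. Arhgef10 rose by 0.75 (SE 0.15, adjusted p = 0.0943) at 4 weeks and read 4.65, 4.78 and 4.35 in cKO and 4.95, 4.89 and 4.98 in controls at 8 weeks, with the groups apart at both times. The medians of the leptomeningeal and matrix lists at 8 weeks were 0.15 and 0.16, against 0.58 and 0.55 at 4 weeks.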

How the data were processed

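Total RNA of cortex from 1 mouse per array was hybridised to Affymetrix mouse expression arrays. The deposited values are log2 intensities, which the authors normalised by RMA within each tissue (Expression Console), and the authors' detection calls were not used here. Groups came from the labels, which do not say that the same replicate number in different groups marks a pair.

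Probe sets with a gene name and a log2 level of at least 4.3 in 3 of the 12 cortex arrays were kept, and each gene was represented by its most variable probe set, which left 14721 genes. A model with 4 groups (cKO and control at 4 and 8 weeks, 12 arrays) was fitted in limma 3.58.1 (R 4.3.3) with eBayes, following the study's methods, with Benjamini-Hochberg adjustment at 15%. The script was tested on simulated data with 200 changed genes. The simulated noise was independent between genes and arrays, so this test does not cover arrays that shift together, such as replicates 3 here. The number of arrays limits the precision, and p-values measure the spread between mice. Named genes are members of the gene lists, genes the study discusses, and those with the lowest p-values or the largest called changes. Members and lists were chosen with earlier results of these data known. Probe sets with several or no gene names were left out. Some genes of the lists are not reported here. Sequences are RefSeq's on GRCm38.p6, where 9 of 10 miRNAs looked up were matched. Alternatives changed the filter, probe set, scaling, arrays, variance model, test and threshold.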

Additional observations from a re-analysis of the deposited data

Results flagged for a closer look

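Perp differed between the 2 ages. Its change between cKO and control cortex was 0.88 at 4 weeks and -0.17 at 8 weeks, and the difference of these changes was 1.05 on the log2 scale (SE 0.14, adjusted p = 0.0843 in limma, an interaction test over all genes), with cKO arrays above all controls at 4 weeks and below all controls at 8 weeks. Leaving out any 1 of the 4-week replicates 1 and 2 or of the 8-week arrays ended this call.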

How the results depend on the processing

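The count of called genes depended on the arrays and on the processing. It was 769 as reported, and of the alternatives run 622 without a filter, 753 with a filter at 6 and 546 with a trended, robust variance. It was 1331 with the probe set of highest mean, 101 with centred arrays, 68 after quantile normalisation and 0 in a fit of the 6 arrays alone. With array weights it was 9705, and without both replicates 3 it was 8242. At a false discovery rate of 5% and 10% it was 2 and 88. An unpaired t-test on the 6 arrays, which the study did not use for its arrays, gave 1 after adjustment. Leaving out 1 array at a time gave 0 to 6814 genes. The lowest was without control replicate 2 at 4 weeks and the highest without control replicate 3. Without 1 of the 8-week arrays it was between 6 and 1264. With a replicate block it was 0 (2951 at an unadjusted p under 0.05 in limma). Deviations of samples with the same number from their group means correlated at -0.0174, 0.00283 and 0.00919. Replicates 3 of the 4-week groups lay between the groups (0.389 for cKO and 0.494 for control), so on that axis their deviations ran in opposite directions. The correlations therefore cannot tell whether these 2 arrays were handled together, which was not tested.

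For the difference of the changes at 4 and 8 weeks the count was 1 as reported, 0 with a filter at 6, with the trended variance, at a false discovery rate of 5% and with the replicate block, 7446 with array weights, 4218 without both replicates 3 and 0 to 1922 without 1 array at a time, highest without cKO replicate 3. The cause of these shifts was not tested.

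Some named genes changed sign. With the probe set of highest mean the difference was 0.068 for Atp5a1, 0.33 for C1qb, 0.066 for Camk2a, -0.15 for Chd7, -0.15 for Cspg4, 0.087 for Ddhd2, 0.064 for Dgkd, 0.29 for Dgkh, 0.15 for Fbxl20, 0.097 for Inpp5f, 0.069 for Lepr, 0.10 for Lhfpl3, 0.14 for Lss, 0.25 for Myadm, -0.084 for Norad, 0.069 for Olfm3, -0.0079 for Pln, 0.039 for Pou3f3, 0.11 for Sh2d5, 0.094 for Shisa9, 0.084 for Slc4a4, 0.39 for Snap23, 0.11 for Stard4, 0.12 for Stxbp5l, -0.0025 for Syt7, 0.13 for Tra2b and 0.26 for Ttc9c. A filter at 6 chose the same probe sets and values for Ddhd2, Dgkd, Lhfpl3, Pou3f3, Sh2d5, Shisa9, Tra2b and Ttc9c. Without a filter Lepr was at 0.75 (adjusted p = 0.0946) and Ptger1 at -0.27. Quantile normalisation put Hba-a2 at -0.0041. Array weights put Rab11fip2 at -0.26 and Snap23 at 0.12, and without both replicates 3 they were at -0.30 and 0.25. Leaving out 1 array at a time gave -0.18 to 0.033 for Camk2a, -0.79 to 0.027 for Ddhd2, -0.28 to 0.45 for Dubr, -0.069 to 0.66 for Kcnj13, -0.023 to 0.58 for Ppp1r1b, -0.35 to 0.45 for Rab11fip2, -0.35 to 0.16 for Snap23 and -1.97 to 0.29 for Ttr.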
